A study of Mus musculus with 28 samples.

Results

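The long genes described here are those whose locus in the deposited tables spans more than 100 kb and that were transcribed in macrophages. The members were chosen by 3 criteria read in 1 library, the scrambled-hairpin control given lipopolysaccharide (LPS) for 45 min without DRB. The locus had to be listed for no other gene, its end minus its start had to exceed 100 kb, and its level had to be at least 1 FPKM, a unit of fragments relative to transcript length and library total, with status OK. Of 36806 genes in each table, 961 had a locus of their own longer than 100 kb, and 450 of these met all criteria. By length, 344 spanned 100 to 200 kb, 88 spanned 200 to 400 kb and 18 more than 400 kb. A further 6764 active genes with their own locus, of 100 kb or less, serve for comparison.

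The cells were macrophages grown from bone marrow of mice of the strain FVB/Hsd, transduced with retroviral vectors, selected with puromycin and used on day 7. RNA labelled with 4-thiouridine (4sU) for 45 min, which is enriched for newly made transcripts, was sequenced in 5 sets, and polyA RNA in the sixth. The DRB set held scrambled control cells and cells with hairpin sh1137 against Wdr82, all after 45 min of LPS at 10 ng/ml, with or without DRB. The labels do not state how long DRB was applied. The unstranded 4sU set held empty-vector (LMP) and sh1137 cells that were untreated or given LPS for 45 min, 2 h or 4 h. The stranded 4sU set held the same vectors in untreated cells and after 1 h of LPS, and the polyA set in untreated cells and after 4 h of LPS. The Pnuts set and the Set1a+Set1b set held scrambled control and hairpin cells, untreated and after 45 min of LPS, as stranded 4sU RNA. In sets with the LMP control, an effect of depletion cannot be told apart from one of carrying any hairpin. Each condition was 1 library, and nothing in the labels says which libraries came from separate cultures, so any p measures only the spread between these libraries.

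RNA polymerase II pauses shortly after it starts, and its release into the gene body requires the kinase of the elongation factor P-TEFb, which DRB inhibits. Polymerases that have already been released travel on to the end of the gene, so a long gene can still be occupied after a short one has been cleared. Wdr82 belongs to the Set1 complexes, which methylate histones, and to a complex of the protein phosphatase PP1 with PNUTS, and is known for its part in ending transcription. In macrophages, LPS acts through the receptor Tlr4 and switches on genes within minutes.

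The member locus lengths ran from 100.034 to 994.529 kb, with a median of 141.8 kb. Their FPKM in the choosing library ran from 1.04 to 254, with a median of 13.6, against 12.3 for the shorter active genes. Just inside the length threshold were Ccdc18 (100.034 kb) and the phosphoinositide phosphatase gene Inpp5d (100.196 kb), and just outside it Rnf13 (99.355 kb) and Spred2 (99.652 kb). Just inside the FPKM threshold were Pcbp3 (1.04) and Sncaip (1.07), and just outside it Mamdc2 (0.990) and Adcy2 (0.998). The 5 longest members with ordinary gene names were the ubiquitin ligase gene Park2 (chromosome 17, 11259990 to 12254519 in mm9, 994.529 kb), the methyltransferase gene Smyd3 (566 kb), Atrnl1 (522 kb), the phosphodiesterase gene Pde4b (520 kb) and Elmo1 (516 kb), which encodes an activator of Rac in engulfment. In 10 lists grouped by function, 170 of the 450 members were found.

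The number of genes at 1 FPKM or more ran from 11533 to 13799 across libraries, and the status was other than OK for 0.696 to 0.758% of genes. The tables hold FPKM and bounds without read counts, so the depth of the libraries is unknown and no counting intervals are given. Macrophage markers, of which 9 of 10 listed were found, summed to between 2234 and 12958 FPKM over the 28 libraries. Lyz2 alone ran from 0 to 9141 FPKM, so the sums depend much on this gene. The sums were at most 15.2 for neutrophil, 2.19 for lymphocyte, 15.1 for dendritic cell, 0.355 for mast cell and basophil, 11.2 for stroma and 0.927 for erythroid markers. Of the marker genes only Emr1, which encodes the macrophage antigen F4/80, was a member. Wdr82 itself was at 28.5 FPKM in scrambled and 16.3 in sh1137 cells without DRB and at 10.8 and 2.12 with DRB, and lower with sh1137 in every pair of the Wdr82 sets. Ppp1r10, the gene for PNUTS, was not lower in the hairpin cells of the Pnuts set. It was at 89.5 in control and 144 in hairpin cells when untreated and at 203 and 332 after LPS. These are values of 4sU RNA, and the set has no polyA library, so they do not show the level of mature PNUTS RNA. With sh1137, Ppp1r10 was also higher in every pair of the Wdr82 sets. In the Set1a+Set1b set Setd1a was at 16.1 and 14.8 untreated and 18.1 and 13.5 after LPS, and Setd1b at 11.3 and 11.8 and at 10.5 and 6.70. In the tables no pair of libraries shared more than 0.00923% of their values.

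Promoters of 317 members were found in a RefSeq table on GRCm38.p6, a later build than the mm9 of the FPKM tables, so the positions of the promoters are not those of the loci. The table lists 250 bases before to 50 bases after each start. The first and the last listed promoter of the kinase gene Sgk1 and of Pde4b are shown because these members had the lowest DRB ratios, and those of the lipid transfer gene Osbpl3, the stress kinase gene Map3k5 and the zinc finger gene Zfp618 because they were among the highest. Capitals mark every CG dinucleotide.
Sgk1, first start, plus strand, chr10:21881934-21882233: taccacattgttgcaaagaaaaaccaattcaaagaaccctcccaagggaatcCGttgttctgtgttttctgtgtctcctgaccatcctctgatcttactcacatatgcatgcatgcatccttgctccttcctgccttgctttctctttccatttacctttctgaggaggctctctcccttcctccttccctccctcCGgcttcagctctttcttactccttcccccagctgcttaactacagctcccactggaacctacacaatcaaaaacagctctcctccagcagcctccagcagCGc
Sgk1, last start, plus strand, chr10:21994416-21994715: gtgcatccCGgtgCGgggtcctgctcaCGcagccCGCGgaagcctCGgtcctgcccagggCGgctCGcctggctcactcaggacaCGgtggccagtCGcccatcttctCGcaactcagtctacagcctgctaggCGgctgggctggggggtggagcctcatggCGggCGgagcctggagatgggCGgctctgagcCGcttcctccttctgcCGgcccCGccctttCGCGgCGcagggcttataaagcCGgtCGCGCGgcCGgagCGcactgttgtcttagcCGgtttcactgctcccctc
Pde4b, first start, plus strand, chr4:102421305-102421604: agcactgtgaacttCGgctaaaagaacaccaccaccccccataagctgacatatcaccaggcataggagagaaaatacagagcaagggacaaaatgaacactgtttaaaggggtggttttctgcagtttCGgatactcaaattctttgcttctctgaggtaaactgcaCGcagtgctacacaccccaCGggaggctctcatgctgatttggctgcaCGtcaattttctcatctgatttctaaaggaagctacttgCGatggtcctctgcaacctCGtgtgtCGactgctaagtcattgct
Pde4b, last start, plus strand, chr4:102589593-102589892: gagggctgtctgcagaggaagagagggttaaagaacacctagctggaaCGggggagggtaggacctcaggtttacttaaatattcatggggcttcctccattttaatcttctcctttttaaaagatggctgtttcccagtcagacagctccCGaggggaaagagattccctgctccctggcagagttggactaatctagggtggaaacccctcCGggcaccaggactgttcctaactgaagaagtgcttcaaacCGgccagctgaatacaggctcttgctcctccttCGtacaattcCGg
Osbpl3, minus strand, chr6:50456121-50456420: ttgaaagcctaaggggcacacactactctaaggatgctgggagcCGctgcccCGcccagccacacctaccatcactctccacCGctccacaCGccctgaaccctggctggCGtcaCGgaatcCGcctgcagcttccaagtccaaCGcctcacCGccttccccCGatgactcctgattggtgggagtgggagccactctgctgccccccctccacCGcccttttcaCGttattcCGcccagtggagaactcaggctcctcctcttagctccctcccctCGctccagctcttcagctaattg
Map3k5, plus strand, chr10:19934276-19934575: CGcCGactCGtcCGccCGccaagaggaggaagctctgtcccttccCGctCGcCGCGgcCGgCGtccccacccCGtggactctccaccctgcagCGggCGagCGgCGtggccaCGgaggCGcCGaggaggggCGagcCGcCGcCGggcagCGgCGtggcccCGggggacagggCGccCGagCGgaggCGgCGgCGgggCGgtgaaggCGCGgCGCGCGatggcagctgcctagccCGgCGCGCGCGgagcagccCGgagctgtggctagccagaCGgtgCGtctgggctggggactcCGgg
Zfp618, plus strand, chr4:62965317-62965616: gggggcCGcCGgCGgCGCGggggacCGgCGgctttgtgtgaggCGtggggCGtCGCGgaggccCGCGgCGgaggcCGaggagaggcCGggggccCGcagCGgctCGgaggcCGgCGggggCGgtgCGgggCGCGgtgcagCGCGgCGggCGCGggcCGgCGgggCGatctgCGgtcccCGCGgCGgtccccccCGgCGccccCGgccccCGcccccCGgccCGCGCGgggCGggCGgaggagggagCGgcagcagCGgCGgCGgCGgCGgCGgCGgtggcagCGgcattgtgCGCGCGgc

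The first Sgk1 promoter held 3 CG dinucleotides and the last 28, while both Pde4b promoters shown held few (8 and 6). Osbpl3 held 14, Map3k5 47 and Zfp618 59. Over all 452 promoters of the 317 matched members the median was 23, over the 5216 promoters of the shorter active genes it was 20, and over all 32851 promoters of the table it was 7. The motif TATAAA, searched on both strands, stood in 9.51% of member promoters, 6.98% of those of the shorter active genes and 13.6% of all promoters. The AP-1 motif TGANTCA stood in 6.42%, 4.74% and 7.81%. The CRE motif TGACGTCA stood in 1.99%, 3.32% and 1.79%, and a 10-letter form of the NF-kB site in 1.11%, 1.92% and 1.63%. Of the promoters shown, TATAAA was found in the last of Sgk1, and none of the other 3 motifs in any.

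The first question was how the 4sU RNA of long genes differed with DRB. In cells given DRB, the FPKM of most long genes was higher than in cells without DRB, and that of a few LPS-responsive long genes was much lower. The median FPKM of the 450 members was 13.6 without and 31.0 with DRB in control cells, and 13.4 without and 24.1 with DRB in sh1137 cells. The medians of the shorter active genes were 12.3 and 11.1 in control cells and 11.9 and 11.5 in sh1137 cells. Ratios are given as log2((FPKM + 1)/(FPKM + 1)) within 1 table, and genes with status OK in both libraries were tested if one of them reached 1 FPKM. A difference of at least 2-fold was the rule for a call. Being 1 library against 1, these pairs have no test.

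In control cells, 264 of 450 members were called higher with DRB and 6 lower. The same calls were made for 16.7% (higher) and 16% (lower) of the 13249 genes tested. For the 6764 shorter active genes, held to the same FPKM threshold, the shares were 8.5% and 17.9%. This pair contains the library that chose the members, so its counts are a description. In sh1137 cells, whose libraries did not enter the choice, 193 of 448 members were called higher and 6 lower, against 13.7% and 15.9% of 13521 genes. Of 6670 shorter active genes, 8.82% and 16.3% were called there. The 2 pairs share no library, and 184 members were called higher in both, which is 69.7% of the calls in control and 95.3% of those in sh1137 cells. The share of all genes called higher in both is not given, so this overlap is a description and not a trait of long genes. The median log2 ratio of the members was 1.15 in control and 0.93 in sh1137 cells, against 0.16 and 0.18 for all genes tested. The deposited confidence bounds did not overlap for 8 higher and 2 lower members in control cells, against 1.4% and 2.22% of all genes tested. In sh1137 cells they did not overlap for 1 higher and 2 lower members, against 0.643% and 2.27%.

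From 20 kb upward the median DRB ratio was higher in longer loci, up to about 200 kb. In control cells the median log2 ratio was 0.30 for active genes of up to 5 kb, -0.15 for 5 to 20 kb, -0.19 for 20 to 50 kb and 0.25 for 50 to 100 kb. It was 1.04 for members of 100 to 200 kb, 1.53 for 200 to 400 kb and 1.20 for over 400 kb. In sh1137 cells the medians followed the same order, with 0.36, -0.02, -0.08 and 0.21 below 100 kb and 0.84, 1.09 and 0.92 above. Within the members, the control median was 0.79 at 100 to 125 kb, 1.22 at 125 to 150 kb, 1.47 at 150 to 200 kb, 1.54 at 200 to 250 kb, 1.53 at 250 to 300 kb and 1.55 at 300 to 400 kb. It was 1.18 in the 17 members of 400 to 600 kb, below the medians of the classes from 125 to 400 kb. FPKM is a share of each library, and a general loss of RNA with DRB would not show in it. From the steps between values of the lowest genes, 1 fragment was worth 1.93 times as much with DRB as without in control cells and 2.33 times in sh1137 cells, and the part of this in the ratios was not tested.

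**Figure D1:**
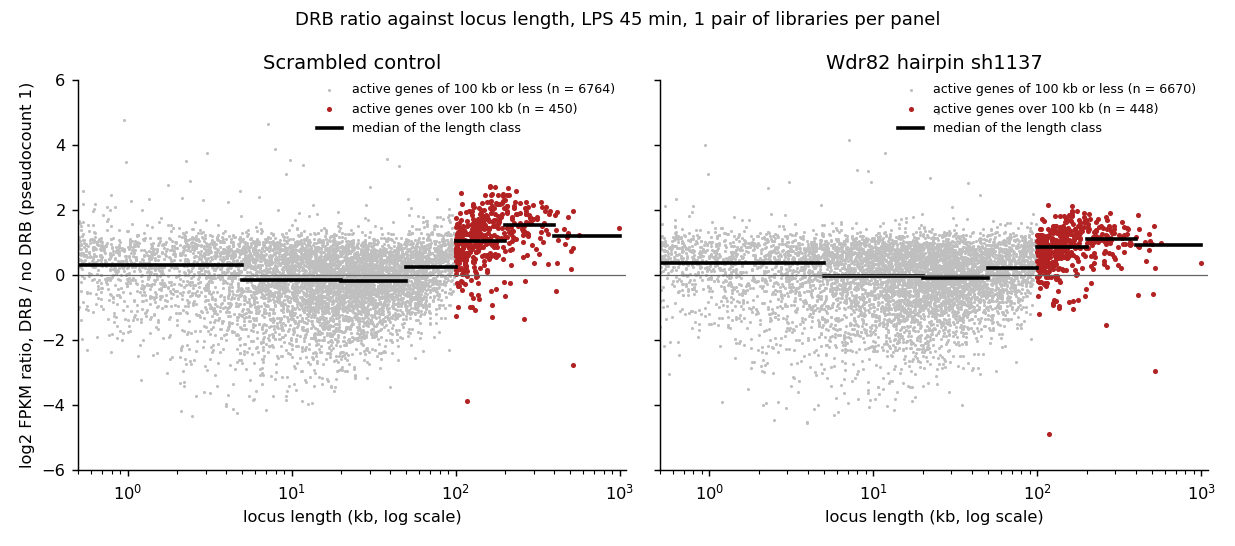
Log2 FPKM ratio of DRB to no DRB (y) against locus length in kb on a log scale (x) for active genes, in scrambled control cells (left) and sh1137 cells (right). Red points are the members (450 and 448) and black bars the class medians, which reach 1.53 and 1.09 at 200 to 400 kb. Beyond the y limits lie 9 and 2 genes, and 404 and 380 genes under 0.5 kb lie left of the axis.

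Among the members with the highest DRB ratios were genes of lipid transfer, stress signalling and ubiquitin ligation. The FPKM of Osbpl3 was 17.9 without and 125 with DRB in control cells, and 24.2 and 94.3 in sh1137 cells. Map3k5, which encodes the stress kinase ASK1, was at 16.4 and 111 in control cells, and at 19.3 and 53.2 in sh1137 cells. In each of these genes both DRB libraries lay above both libraries without DRB. The ubiquitin ligase gene Mycbp2 was at 25.9 and 159 in control cells and 27.1 and 91.1 in sh1137 cells. Zfp618 differed between the vectors, with 7.55 and 54.8 in control cells but 3.11 and 6.40 in sh1137 cells. The highest ratio in sh1137 cells among members with an ordinary gene name was that of Cit, the gene for citron kinase of cell division, at 14.4 and 65.3 (log2 ratio 2.11), and in control cells it was at 19.0 and 96.0. The kinase gene Rps6ka5 followed with 5.31 and 23.7, and the glutamate receptor gene Gria3 with 0.802 and 5.76.

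The members lower with DRB were led by genes that LPS induces. Sgk1, a kinase of stress and hormone signalling, was at 213 FPKM without DRB (deposited bounds 37.4 to 392) and 13.7 with DRB (3.67 to 23.7) in control cells. In sh1137 cells it was at 197 (40.5 to 356) and 5.62 (0.562 to 12.8). Pde4b, which encodes an enzyme that degrades cyclic AMP, was at 55.4 and 7.33 in control and 56.2 and 6.34 in sh1137 cells. In both genes the groups with and without DRB lay far apart, at log2 ratios of -3.86 and -4.91 for Sgk1 and -2.76 and -2.96 for Pde4b. Socs6, of the suppressor of cytokine signalling family, was at 26.5 and 9.71, and at 31.5 and 10.3. The guanine nucleotide exchange factor gene Arhgef3 was at 8.81 and 2.99, and at 13.3 and 5.93. These 4 were the members called lower in both pairs. Epc2, a subunit gene of a histone acetyltransferase complex, was at 24.2 and 9.55 in control cells, and at 21.9 and 13.4 in sh1137 cells. Spata13 completed the 6 lower calls of the control pair with 9.33 and 3.88. The LPS receptor gene Tlr4 was at 27.1 and 13.0 in control cells and, with a log2 ratio of -1.21, at 26.3 and 10.8 in sh1137 cells.

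**Figure D2:**
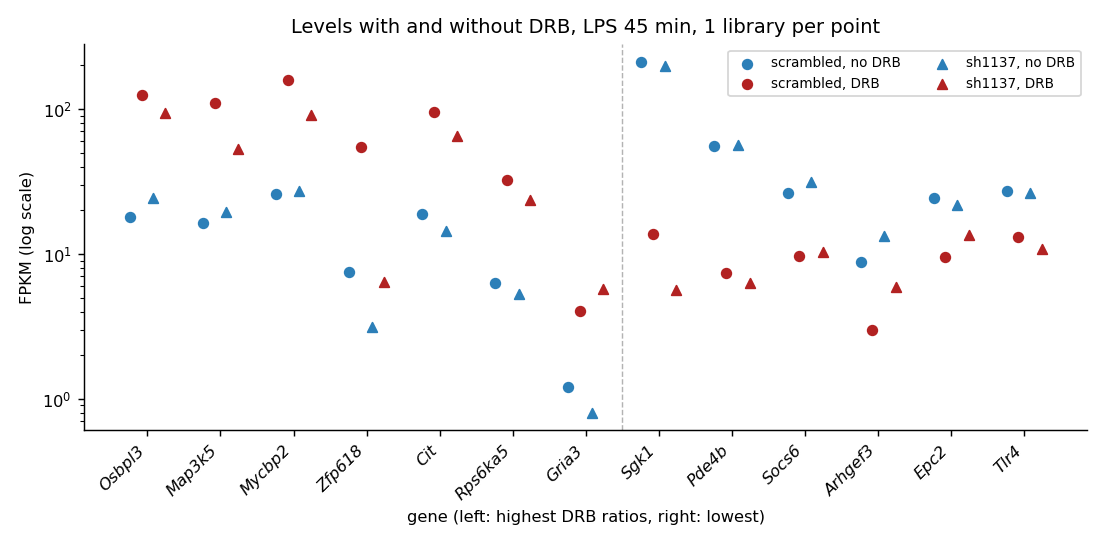
FPKM on a log scale (y) of members with the highest and lowest DRB ratios (x) in the 4 libraries of the DRB set, 1 library per point. Left of the dashed line the DRB libraries (red) lie above those of the same vector without DRB (blue), as for Osbpl3 (17.9 and 125 in control cells), and right of it below them, as for Sgk1 (213 and 13.7).

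Most functional groups of long genes were higher with DRB with either vector. Of 28 members that regulate small GTPases, 24 were called higher in control and 20 in sh1137 cells, and 1 (Arhgef3) lower in each, with medians of 1.70 and 1.26. The Rac activator Vav3 was at 86.3 and 262 in control cells, Elmo1 at 82.3 and 325, Dock10 at 58.2 and 138 and Arhgef7 at 79.3 and 130. Of 23 members of kinase, calcium and phosphoinositide signalling, 19 and 17 were called higher and none lower. The focal adhesion kinase relative Ptk2b was at 107 and 464, Plcg2 at 43.9 and 139 and Inpp5d at 64.4 and 220. Of 17 members of endocytosis and vesicle traffic, 14 and 10 were called higher and all had a ratio above 0, among them Sh3kbp1 at 41.6 and 163 and Wdfy3 at 29.3 and 111. Of 20 members of membrane transport and lipid metabolism, 15 and 9 were called higher, while the calcium pump gene Atp2b1 was at 81.8 and 84.5.

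Fewer calls were made for chromatin and RNA factors, with 8 of 19 higher and 1 (Epc2) lower in control and 6 higher in sh1137 cells (medians 0.94 and 0.78). The splicing regulator Mbnl1 was at 106 and 259, the RNA-binding protein gene Qk at 74.6 and 103, the remodeller gene Chd2 at 70.7 and 79.5 and Phf20 at 58.6 and 48.0. Transcription factors and coregulators had 16 and 12 of 25 called higher, including Mef2a at 105 and 297 and Nfkb1, which encodes an NF-kB subunit, at 39.9 and 85.0. Cytoskeleton and adhesion genes had 11 and 9 of 17 called higher, such as Tns3 at 86.5 and 318, whereas the actin regulator gene Mtss1 was at 73.0 and 84.9. Of the surface and immune receptors, 5 of 14 were called higher in control cells, and 6 of 13 higher and 1 (Tlr4) lower in sh1137 cells. Emr1 was at 50.7 and 148, the leukocyte phosphatase gene Ptprc at 48.7 and 129 and the scavenger receptor gene Cd36 at 131 and 220. Of 14 inflammatory and LPS signalling members, 11 and 8 were called higher and 2 (Pde4b and Socs6) lower in each pair. Of 3 cyclic nucleotide phosphodiesterases, 1 was called higher and 1 (Pde4b) lower in each. Set against all 450 members (264 and 193 higher), no list was tested for a difference.

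The second question was which long genes responded to LPS within 45 min. In control cells of the unstranded, Pnuts and Set1a+Set1b sets, 14 of 443 members tested rose and none fell by limma (adjusted p under 0.05 over all genes, 3 pairs, Benjamini-Hochberg). By the same rule 5.67% of 14702 genes rose and 3.92% fell, so the share of long genes called was below that of all genes in both directions. All genes were not held to the FPKM threshold of the members. Of the 6682 shorter active genes tested, which were, 503 rose and 308 fell. At an unadjusted p under 0.05 there were 182 members. None of these libraries chose the members, but the choosing library was also from control cells after 45 min of LPS. The rule thus left out long genes under 1 FPKM in that condition. The mean log2 ratio was above 0 in 390 of the 443 members, and its median was 0.23 against 0.06 for the shorter active genes. It was 0.23, 0.24 and 0.23 in the 3 length classes, so the classes of members differed by little. Active genes of 50 to 100 kb lay between, with medians of 0.18, 0.14 and 0.15 in the single pairs against 0.23, 0.22 and 0.25 for members. In the unstranded pair 595 of 800 such genes and 367 of 434 members were above 0. The share of all genes above 0 is not given. The count of calls rests on all 3 pairs, since leaving out the Pnuts or the Set1a+Set1b pair left no call and leaving out the unstranded pair left 1. Adding the 3 pairs of hairpin cells brought it to 263 higher and 2 lower. The share of all genes called in that larger fit is not given, so the comparison with all genes holds for the 3 control pairs only.

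Pde4b rose the most, from 7.42 FPKM untreated to 151 after LPS in the unstranded set, from 8.44 to 120 in the Pnuts set and from 12.3 to 180 in the Set1a+Set1b set (mean log2 ratio 3.87, SE 0.13, limma adjusted p 0.0108, higher in 3 of 3 pairs). Pcdh7, which encodes an adhesion protein of the protocadherin family, rose from 22.0 to 87.6, from 33.1 to 142 and from 15.9 to 94.8 (2.17, SE 0.14, limma adjusted p 0.0149). Sgk1 rose from 62.8 to 331, from 111 to 438 and from 124 to 422 (2.04, SE 0.15, limma adjusted p 0.0175). For these 3 genes each LPS library lay above all 3 untreated libraries. Rapgef2, an activator of the GTPase Rap, rose from 25.8 to 79.4, from 27.4 to 99.8 and from 36.5 to 142 (1.78). Arhgef3 rose from 7.10 to 26.4, from 9.21 to 29.4 and from 13.3 to 41.7 (1.64), and Spata13, another guanine nucleotide exchange factor gene, by 1.09. The other 8 were Rin2 (0.97), Sema3c (0.93), Plxna2 (0.80), Igf2bp2 (0.71), Map3k5 (0.68), Rps6ka3 (0.60), Fam129a (0.56) and Arid5b (0.53). By list, 2 of 28 regulators of small GTPases (Rapgef2 and Arhgef3), 3 of 13 inflammatory and LPS signalling genes (Pde4b, Rapgef2 and Arid5b) and none of 19 chromatin and RNA factors rose.

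These LPS calls were set beside the DRB ratios, which come from other libraries. The 14 members that rose had a median DRB log2 ratio of -0.05 in control and -0.52 in sh1137 cells, against 1.17 and 0.94 for the other 434 members. Of the 6 that rose at least 2-fold, 5 had a DRB ratio below 0 in control cells (median -1.19), and Rapgef2, at 35.7 without and 74.0 with DRB, was the exception. Pcdh7, at 411 kb, was at 48.4 and 33.8. Shorter active genes that rose at least 2-fold numbered 255, and 234 of them had a DRB ratio below 0 (median -1.57). This difference was not tested.

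Some long genes have listed starts far apart from each other, whose places in the mm9 loci were not determined. The RefSeq table listed 6 starts for Sgk1, 112 kb apart at the outermost, beside a locus of 118 kb in the files. It listed 4 for Pde4b, 168 kb apart, and 2 for Spata13, 98.2 kb apart. The share of the locus was chosen as a measure after these values were seen. In 28 members with several starts at least 50% of the locus length apart, the median DRB log2 ratio was 1.58 in control and 1.19 in sh1137 cells, and 6 were below 0. Pde4b, at 32.4%, is not in this group. In some members of it, such as Creb5 (233%), the outermost starts lie farther apart than the mm9 locus is long. Members with 1 listed start (217) had medians of 1.12 and 0.88, with 13 below 0 in control cells. Most of the 28 had a ratio above 0, as Elmo1 did (382 kb between 2 starts, log2 ratio 1.97). The share below 0 in control cells was nevertheless larger among them than among the 217. The part of start position in the ratios was not tested. Of the 14 members that rose with LPS, 12 were matched to 25 promoters with a median of 8 CG dinucleotides. Of these promoters 6 belong to Sgk1, 4 to Pde4b and 4 to Arhgef3, while the single promoters of Map3k5 and Igf2bp2 held 47 each. A promoter with CGCG was found for 9 of the 12 genes, against 264 of the 317 matched members and 3160 of 4204 matched shorter active genes. Of these 25 promoters 12% held TATAAA, and none held the AP-1, CRE or NF-kB motif.

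At later times after LPS, long genes differed in both directions, described here from 1 pair of libraries each. The 2 h and 4 h pairs of the unstranded set share their untreated library, while the stranded and polyA pairs each have their own. In empty-vector cells of the unstranded set, 44 of 435 members were called higher at 2 h and 30 lower, against 11.5% and 7.3% of 13963 genes. At 4 h 90 of 434 were called higher and 72 lower, against 20.3% and 11.3% of 14274 genes. Centring on the median gene turned the split at 4 h to 76 higher and 92 lower. After 1 h in the stranded set, 6 of 440 were called higher and 1 lower (5 and 3 when centred), against 4.22% and 3.75% of 13258 genes. In polyA RNA at 4 h, 102 of 409 were called higher and 42 lower (82 and 57 when centred), against 18.7% and 8.79% of 12326 genes. Medians by length stayed between -0.10 and 0.37 in these pairs.

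Pde4b was at 7.42, 151, 254 and 392 FPKM in untreated cells and after 45 min, 2 h and 4 h, and in polyA RNA at 5.78 and 142 after 4 h. Rapgef2 was at 25.8, 79.4, 233 and 667, and Arhgef3 at 7.10, 26.4, 107 and 189. These were higher at each later time, whereas Sgk1 was at 62.8, 331, 336 and 224. Nfkb1 was at 32.3, 50.7, 280 and 429, and in polyA RNA at 44.0 and 554. Lass6, a ceramide synthase gene, was at 24.3, 36.8, 169 and 775. The antiviral helicase gene Ddx60 was highest only at the last time, with 8.26, 7.13, 21.7 and 285. Of the 14 inflammatory and LPS signalling members, 10 were called higher at 4 h and none lower. That list was assembled with responses of these cells known, so its direction is not independent evidence.

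Among the members with the lowest ratios at 4 h, Snx24, a sorting nexin gene, was at 27.4, 27.2, 4.75 and 0.408. The actin regulator Mtss1 was at 40.3, 41.5, 36.5 and 2.70, and thus near its untreated level until 2 h. Zdhhc14, a protein acyltransferase gene, was at 9.38, 9.89, 3.94 and 0.0946, and Rnf150 at 12.9, 12.9, 4.73 and 0.760. Ica1 was at 17.2, 13.3, 4.99 and 1.51, and Rnf144b, a ubiquitin ligase gene, at 7.39, 5.45, 1.01 and 0.414. None of these genes was lower at 45 min by more than 2-fold. In polyA RNA, Snx24 was at 9.95 and 1.16, Mtss1 at 25.7 and 2.56, the transcription factor gene Nfatc2 at 13.1 and 0.869 and Vgll4, a cofactor of TEAD proteins, at 18.4 and 1.10. At 4 h in 4sU RNA, where 90 members in all were called higher and 72 lower of 434, endocytosis and vesicle traffic members had no higher and 5 lower calls of 17. Transcription factors and coregulators had 8 higher and 11 lower of 25, regulators of small GTPases 7 and 7 of 28, and chromatin and RNA factors 1 and 3 of 19. Cytoskeleton and adhesion genes had 3 and 4 of 16, and phosphodiesterases 1 and 1 of 3. Kinase, calcium and phosphoinositide signalling had 5 and 3 of 23, membrane transport and lipid metabolism 6 and 2 of 20, and surface and immune receptors 5 and 0 of 13.

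**Figure D3:**
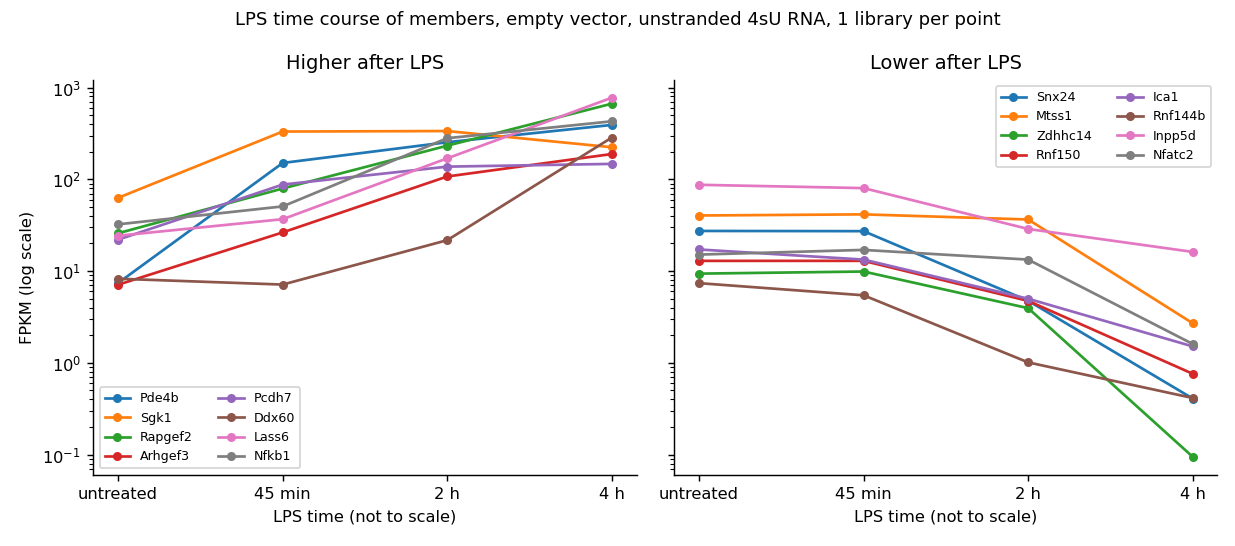
FPKM on a log scale (y) of 16 members in untreated empty-vector cells and after 45 min, 2 h and 4 h of LPS (x), 1 library per point. Pde4b runs from 7.42 to 392, while Snx24 stays near 27 until 45 min and reaches 0.408 at 4 h.

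The third question was how long genes differed when Wdr82 was depleted. Over the 4 times of the unstranded set, each a pair of 1 sh1137 and 1 empty-vector library, 19 of 445 members rose and 7 fell by limma (adjusted p under 0.05 over all genes, 4 pairs, Benjamini-Hochberg). By the same rule 3.72% of 16106 genes rose and 3.22% fell. Against all genes, the share of long genes that rose was thus near and the share that fell was lower. All genes were not held to the FPKM threshold of the members. Of the 6692 shorter active genes tested, which were, 196 rose and 326 fell. That is a smaller share rising and a larger share falling than among the members, and this difference was not tested. At an unadjusted p under 0.05 there were 149 members. The median log2 ratio was 0.08, against -0.05 for the shorter active genes, and 0.08, 0.10 and 0.03 in the 3 length classes. The 4 times were treated as repeats. Leaving out any 1 of the 4 pairs left no member called, and adding the 2 pairs of the stranded set gave 92 higher and 36 lower. The share of all genes called in that larger fit is not given, so the comparison with all genes holds for the 4 pairs only.

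The members that fell included genes of lipid uptake and adhesion. Cd36, the scavenger receptor for oxidised lipids and fatty acids, was at 77.5, 122, 66.7 and 65.1 FPKM in control cells (untreated, 45 min, 2 h and 4 h) and 26.6, 40.0, 22.1 and 23.2 with sh1137 (mean log2 ratio -1.53, SE 0.08, limma adjusted p 0.0176, lower in 4 of 4 pairs). Each sh1137 value lay below all control values. Pcdh7 was at 22.0, 87.6, 137 and 147 and at 10.2, 38.1, 54.6 and 49.5 (-1.27, SE 0.11, limma adjusted p 0.0232). Pparg, the nuclear receptor of lipid metabolism, was at 10.2, 9.52, 12.4 and 2.73 and at 4.12, 4.42, 3.65 and 1.24 (-1.09, SE 0.15, limma adjusted p 0.0328). Pid1, which encodes a phosphotyrosine-binding protein of insulin signalling, was at 81.4, 97.6, 60.6 and 187 and at 39.2, 50.1, 33.3 and 68.4 (-1.07). Cadm1 (-0.67), the nuclear pore gene Nup210 (-0.59) and the lipid kinase gene Pik3cb (-0.53) fell by less than 2-fold.

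Of the members that rose, Tns1, which encodes the focal adhesion protein tensin, was at 4.65, 3.49, 2.84 and 0.635 in control cells and at 22.0, 23.3, 9.84 and 1.86 with sh1137 (1.69, SE 0.29, limma adjusted p 0.0448). Rnf144b was at 7.39, 5.45, 1.01 and 0.414 and at 19.4, 16.3, 3.35 and 4.74 (1.46, SE 0.17, limma adjusted p 0.0279). Agmo, the gene of an ether lipid enzyme, was at 1.98, 2.66, 0.721 and 1.24 and at 7.21, 5.58, 2.93 and 5.63 (1.27). Abca1, the cholesterol efflux pump, was at 5.98, 6.59, 11.5 and 12.7 and at 13.3, 17.5, 26.8 and 24.1 (1.09, SE 0.10, limma adjusted p 0.0239). The adaptor gene Gab1 (1.24), the junction gene Cgnl1 (1.03) and the growth factor receptor gene Igf1r (0.84) also rose. The other 12 rose by less than 2-fold (0.45 to 0.75). By list, 2 of 20 members of membrane transport and lipid metabolism (Abca1 and Man1a) and 2 of 28 regulators of small GTPases (Arhgap24 and Tbc1d22a) rose, and none of 19 chromatin and RNA factors or 17 members of endocytosis and vesicle traffic passed the test.

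**Figure D4:**
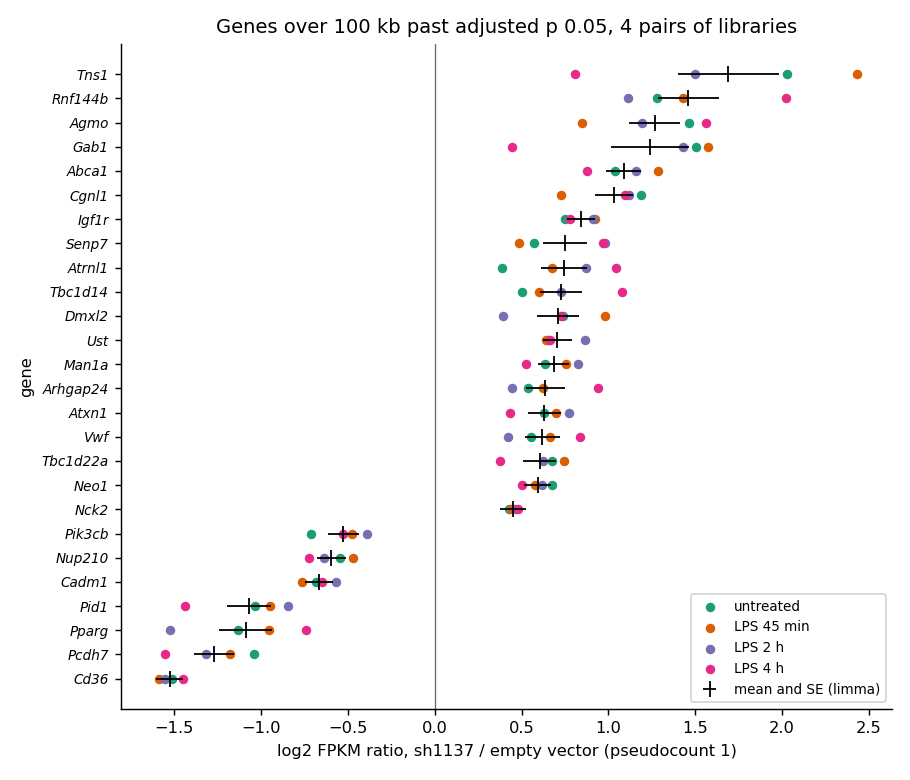
Log2 FPKM ratio of sh1137 to empty vector (x) for the 26 members past adjusted p 0.05 (y), with 1 point per LPS time and the limma mean and SE in black. All 4 points lie on 1 side of 0 for each gene, from Cd36 (mean -1.53) to Tns1 (1.69).

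Several of these members were measured again in sets that did not enter the fit. In untreated cells of the stranded set, Tns1 was at 6.50 in control and 34.7 in sh1137 cells, Abca1 at 3.83 and 11.9, Pid1 at 170 and 78.4, and Pcdh7 at 48.9 and 17.9. Cd36 was at 118 and 77.3. There 17 of 446 members were called higher and 3 lower, against 7.37% and 3.65% of 13759 genes, and after 1 h of LPS 20 of 444 higher and 10 lower, against 7.92% and 4.77% of 13569 genes. In the libraries labelled Pnuts hairpin, in which Ppp1r10 was not lower, after 45 min of LPS, 26 of 444 members were called higher and 3 lower, against 6.65% and 4.21% of 13254 genes. Tns1 was at 4.18 and 27.0 there, Abca1 at 3.70 and 19.8 and the clotting factor gene Vwf at 6.78 and 30.1. In the untreated library labelled Set1a+Set1b hairpin, in which Setd1b was not lower, and its control (given first), Tns1 was at 7.01 and 21.7, Abca1 at 14.5 and 24.6 and Cd36 at 137 and 75.6. Cd36 was higher in the untreated library labelled Pnuts hairpin, at 124 against 78.9. In polyA RNA of untreated cells Abca1 lay in the other direction, at 48.0 in control and 13.1 in sh1137 cells, while Cd36 was at 132 and 107.

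The last question was whether the Wdr82 hairpin mattered to long genes under DRB. Without DRB, members differed little between sh1137 and scrambled cells after 45 min of LPS, with a median log2 ratio of -0.05. Of 450 members 2 were called higher and 2 lower, against 4.12% and 1.93% of 13089 genes. The control of this pair is the library that chose the members, so its counts are a description. The shorter active genes, held to the same FPKM threshold in that library, were called at 1.48% and 1.43%. With DRB, 359 of 449 members had a ratio below 0 and the median was -0.34, against -0.01 for all 13027 genes tested. Of these members 4 were called higher and 16 lower, against 4.26% and 5.08% of the genes, so the shift was broad and mostly under 2-fold. The shorter active genes had medians of -0.05 without and 0.04 with DRB. These are single pairs of libraries, and neither the ratios nor their difference was tested.

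With DRB the ratio of sh1137 to control was lower in longer loci. Its median was -0.04, 0.08, 0.07 and -0.05 in the 4 classes up to 100 kb and -0.28, -0.50 and -0.62 in the 3 classes above. Without DRB the same medians were -0.05, -0.03, -0.05 and -0.06, and -0.05, -0.04 and -0.18. Per member, the DRB ratio was lower in sh1137 than in control cells in 365 of 448 members, and in 2855 of 6670 shorter active genes. This count uses the same 4 libraries as the ratios above, the choosing library among them, so it is no separate measurement. A fragment was worth 0.883 times as much in sh1137 as in control cells without DRB and 1.06 times with DRB, and the part of this in the ratios was not tested.

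**Figure D5:**
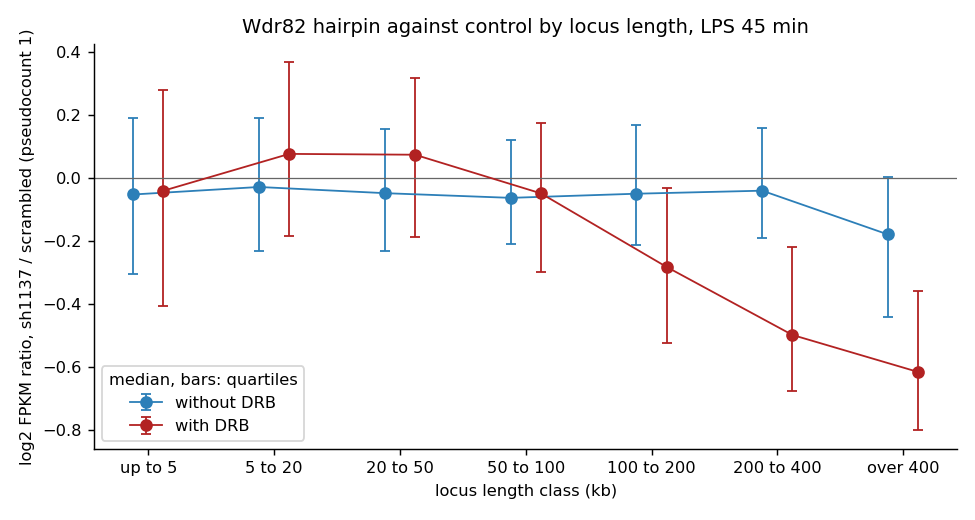
Median log2 FPKM ratio of sh1137 to scrambled control (y, bars show the quartiles) by locus length class (x), with and without DRB, 1 pair of libraries each. With DRB the median is -0.28, -0.50 and -0.62 in the 3 classes over 100 kb, and without DRB -0.05, -0.04 and -0.18.

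The largest difference was that of Zfp618, at 54.8 in control and 6.40 in sh1137 cells with DRB (log2 ratio -2.92) and 7.55 and 3.11 without. Fggy, a carbohydrate kinase gene, was at 30.5 and 11.0 with DRB and 7.65 and 4.94 without. The DNA repair gene Rad51l1 was at 9.23 and 2.91 with DRB but 5.19 and 4.92 without, and the transcription factor gene St18 at 34.5 and 12.6 with DRB and 8.05 and 6.01 without. Pid1 was at 263 and 108 with DRB and 86.5 and 49.5 without. The longest member, Park2, was at 8.15 and 5.79 with DRB and 2.37 and 4.28 without, so the control library was the higher of the pair only under DRB. In the other direction, the peptide hormone processing gene Cpe was at 2.15 and 8.65 with DRB and 1.34 and 3.20 without, Tns1 at 9.45 and 25.3 with DRB and 11.4 and 30.5 without, and Abca1 at 10.1 and 21.2 with DRB and 8.35 and 16.3 without. The kinase gene Tnik was at 6.04 and 13.0 with DRB but 4.42 and 2.90 without.

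The lower ratio ran through the functional groups. With DRB, the ratio of sh1137 to control was below 0 in 24 of 28 regulators of small GTPases (median -0.50), 23 of 25 transcription factors and coregulators (-0.44) and 17 of 19 chromatin and RNA factors (-0.40). It was below 0 in 22 of 23 members of kinase, calcium and phosphoinositide signalling (-0.34), 12 of 17 of endocytosis and vesicle traffic (-0.31) and 10 of 14 surface and immune receptors (-0.13). Without DRB the medians of these 6 lists lay between -0.20 and 0.00. Elmo1 was at 325 and 195 with DRB and 82.3 and 68.7 without, Vav3 at 262 and 169 and at 86.3 and 87.1, and Mef2a at 297 and 195 and at 105 and 97.8. Emr1 was not lower, at 148 and 165 with DRB and 50.7 and 57.5 without.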

How the data were processed

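RNA was sequenced in 28 libraries, 1 per condition, from 6 sets of mouse macrophages. The authors deposited 1 table per set with the FPKM of each gene, its confidence bounds and a status. TopHat 1.3.1, Cufflinks 2.1.1, Cuffdiff 2.1.1 and mm9 are named in the submitters' processing notes. FPKM corrects for transcript length and for the total of each library, so it shows relative and not absolute amounts. It comes from a model, and 4sU RNA also holds introns, whose treatment in the counting is not given in the sources used here.

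Ratios were computed within a table as log2 of FPKM + 1, which understates changes of low genes. A gene entered a pair with an FPKM of at least 1 in either library and status OK in both. Single pairs have no test, and 2-fold was used to call. Wdr82 knockdown (4 pairs of the unstranded set, its LPS times taken as repeats) and LPS at 45 min (3 control pairs) were tested with limma 3.58.1 in R 4.3.3 over all genes, with Benjamini-Hochberg adjustment and a threshold of 0.05. The residual degrees of freedom were 3 and 2. The limma script was tested on simulated data. Tables were read with Python 3.11.15, pandas 2.3.3 and numpy 2.4.6.

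Named genes were, among members with an ordinary gene name, the 5 highest and 5 lowest ratios of a comparison with an FPKM of at least 5 in the higher library, up to 4 members per list with the highest FPKM in the choosing library, the 5 longest members and those next to the thresholds. One gene that this rule names is not reported here. Genes named elsewhere for their values were chosen after these were seen. The members and lists were chosen with earlier results of these data known. Alternatives were a pseudocount of 0.1, other FPKM filters, centring on the median gene, other sets of pairs and members of at least 5 FPKM.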

Additional observations from a re-analysis of the deposited data

Results flagged for a closer look

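Zfp618 responded to LPS in opposite directions in the 2 kinds of cells of the unstranded set. It was at 4.91 FPKM untreated and 23.8 after 45 min in empty-vector cells (log2 ratio 2.07), but at 13.5 and 4.29 in sh1137 cells (-1.46). The ratio in sh1137 cells minus that in control cells was -3.53. Each value is 1 library, and the difference was not tested. In the Pnuts set the gene was at 13.0 and 27.6 in control cells and at 6.35 and 6.95 in the libraries labelled Pnuts hairpin. In the stranded set it was at 15.6 untreated and 10.9 after 1 h in control cells, and at 4.15 and 4.84 in sh1137 cells, so the untreated libraries of the 2 sets differ in which cells were higher.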

How the results depend on the processing

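The limma counts depended most on the settings. For Wdr82 knockdown, 19 members rose and 7 fell. With a pseudocount of 0.1 there were 11 higher, at 5 FPKM or more 32 higher and 17 lower, with no FPKM filter 14 lower, and with 6 pairs 92 higher and 36 lower. Leaving out 1 pair gave 0 to 0 in both directions. For LPS at 45 min, 14 rose and 0 fell. The pseudocount of 0.1 gave 8, the filter of 5 FPKM 36, and 6 pairs 263 higher and 2 lower, while leaving out 1 pair gave 0 to 1 higher. The shares of all genes called under these alternatives are not given, so these counts cannot be set against them. Both fits are already paired, as they use ratios of libraries of 1 table, and no further block was fitted.

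Among single pairs, the members higher with DRB (264 and 193) kept within 1.5 times under every alternative run. The 6 lower became 12 in control and 10 in sh1137 cells with the pseudocount of 0.1, and 10 and 10 when centred. For sh1137 against control without DRB, 2 higher and 2 lower became 7 and 10 with the pseudocount of 0.1, and 1 and 1 with genes or members of at least 5 FPKM. With DRB, 4 higher became 7 with that pseudocount, and 4 higher and 16 lower became 1 and 10 with members of at least 5 FPKM. For LPS at 1 h in the stranded set, 1 lower became 5 with the pseudocount and 3 when centred. For sh1137 in that set, 17 and 20 higher became 8 and 7 with members of at least 5 FPKM, and 3 and 10 lower became 7 and 16 with the pseudocount. For the libraries labelled Pnuts hairpin, 26 higher became 17 when centred and 16 with members of at least 5 FPKM, and 3 lower became 6 with the pseudocount. The cause of these moves was not tested.

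Medians over all members and by length class were recomputed under 3 alternatives. Of these, 334 moved by less than a fixed log2 limit, 25 by more, and 1 reversed. A change of sign was counted as a reversal only where the median itself exceeded a fixed size, so smaller medians that changed sign are among the others. The limit was not derived from the spread of the values. The reversal was for sh1137 against control at 4 h in the unstranded set. Members over 400 kb had 0.24 there, and -0.042 with members of at least 5 FPKM. No library was replicated, depth is unknown, and FPKM cannot show a change shared by all genes.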

Other observations

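Some long genes differed between new and polyA RNA in how they stood with the Wdr82 hairpin. Abca1 was higher with sh1137 in new RNA at each of the 4 times, but in polyA RNA it was at 48.0 in control and 13.1 in sh1137 cells when untreated, and at 42.5 and 22.2 after 4 h of LPS. Pcdh7, lower with sh1137 in new RNA, was at 6.79 and 12.9 in untreated polyA RNA. Tns1 was higher in both, at 8.20 and 13.8 in untreated polyA RNA and at 1.36 and 3.48 after 4 h, and Pid1 lower in both, at 103 and 52.4 in untreated polyA RNA. These genes were chosen after their values were seen, and the difference between the kinds of RNA was not tested.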
